A study of Homo sapiens with 72 samples.

Results

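The BCL2 family decides at the mitochondrion whether a stressed cell lives or dies, and 10 of its genes were followed in human dermal fibroblasts exposed to omaveloxolone. The members were taken by symbol and make up 10 of the 23170 genes in the count table: the survival genes BCL2, BCL2L1 and MCL1, the pore formers BAX and BAK1, the BH3-only genes BID, BCL2L11, BBC3 and PMAIP1, and the mitophagy receptor BNIP3L. The cells were wildtype normal human dermal fibroblasts, a primary culture rather than an established line. They were exposed for 24 h to omaveloxolone, a synthetic triterpenoid that releases the transcription factor NRF2 from its inhibitor KEAP1. There were 4 wells at each of 10 doses (0.0005, 0.002, 0.005, 0.014, 0.04, 0.12, 0.37, 1.11, 3.33 and 10 µM) and 32 DMSO vehicle wells without drug, all with the same genotype. RNA was read by DRUG-seq, which tags the 3' ends of polyadenylated transcripts in whole-well lysates, so a value describes the RNA of a well and not protein, cleavage or binding.

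Survival members hold BAX and BAK1 inactive on the outer mitochondrial membrane. BH3-only proteins are produced or activated under stress, bind the survival members or the pore formers, and so set off the release of cytochrome c. BNIP3L is a distant relative that is best known for marking mitochondria for autophagy.

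Each dose filled a pair of plate columns in rows K and L, from columns 12 and 22 at 0.0005 µM to columns 3 and 13 at 10 µM, and the DMSO wells filled columns 2 and 23. Total counts per well were 9311006 to 10386930 at 0.37 µM, 1432737 to 1709990 at 1.11 µM, 132318 to 208739 at 3.33 µM and 25637 to 39396 at 10 µM, against 4910842 to 8685535 in DMSO. Fewer cells and less RNA per cell cannot be told apart in these totals. All 10 fibroblast markers were above 1 CPM in DMSO (counts scaled to a common library size), and their summed level was 34330 to 38700 CPM in the 0.37 µM wells and 67810 to 80890 CPM in those at 1.11 µM, against 70280 to 84120 CPM in DMSO. None of the 4 counted endothelial markers reached a mean of 1 CPM in the 0.37 µM or the DMSO wells. The 3 counted keratinocyte markers, of which 1 was above 1 CPM in DMSO, summed to 445 to 502 CPM at 0.37 µM, against 325 to 571 CPM in DMSO. The 4 counted melanocyte markers summed to 5.1 to 9.0 CPM at 0.37 µM, against 12.6 to 66.2 CPM in DMSO. The immune list, of which CD68 is also found in fibroblasts, summed to 90.2 to 98.0 CPM in the 0.37 µM wells and 205 to 411 CPM in those at 1.11 µM, against 93.2 to 184 CPM in DMSO, and its part in the results at 1.11 µM was not tested.

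Sequence upstream of 4 members is shown because these genes moved in different directions with dose. Each run ends where the RefSeq or the GENCODE transcript begins, whichever lies further upstream, and is taken from RefSeq on GRCh38.p14. Capitals mark the cyclic AMP response element core TGACG, a stretch shared by sites of ATF and CREB factors, and the E-box CACGTG, found on either strand. In BAX the TGACG overlaps the first E-box.
PMAIP1, chr18:59899746-59899947, plus strand: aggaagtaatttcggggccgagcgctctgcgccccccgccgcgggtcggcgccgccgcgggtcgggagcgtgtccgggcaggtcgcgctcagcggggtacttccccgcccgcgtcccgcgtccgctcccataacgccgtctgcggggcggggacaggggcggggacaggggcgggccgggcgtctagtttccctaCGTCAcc
BBC3, chr19:47232767-47232917, minus strand: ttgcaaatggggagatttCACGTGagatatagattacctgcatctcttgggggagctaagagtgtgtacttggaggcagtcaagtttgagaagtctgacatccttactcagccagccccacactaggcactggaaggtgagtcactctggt
BCL2L1, chr20:31723990-31724213, minus strand: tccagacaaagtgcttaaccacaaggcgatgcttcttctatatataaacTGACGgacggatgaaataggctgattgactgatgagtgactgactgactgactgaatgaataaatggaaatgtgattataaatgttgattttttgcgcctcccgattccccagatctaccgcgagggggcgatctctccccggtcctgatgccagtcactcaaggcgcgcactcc
BAX, chr19:48954625-48954814, plus strand: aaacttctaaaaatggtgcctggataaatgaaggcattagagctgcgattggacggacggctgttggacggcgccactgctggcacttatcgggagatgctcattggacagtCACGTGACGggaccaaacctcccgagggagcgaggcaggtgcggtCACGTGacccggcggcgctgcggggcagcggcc

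The PMAIP1 core lies 55 bases before the RefSeq start and that of BCL2L1 lies 201 bases before it. A second RefSeq entry of BCL2L1 did not hold this core. TGACG was present in the 250 bases before the start in 21.2% of all 35116 RefSeq promoter entries, so a single match is common. CACGTG was present in 6.34% of the entries. The 250-base window of BAX held 4 of them, at 138, 93, 45 and 14 bases before the start. BBC3 had 1, at 232 bases. Members called at no dose held such stretches as well. Of BID, 1 RefSeq entry held CACGTG at 106 bases and another at 47 bases, and its other entries held none. BCL2 held TGACG at 225 bases. The antioxidant response element core TGACNNNGC, a stretch shared by NRF2 sites, was found once among the members' entries, in BAX at 89 bases before the start, where it overlaps the second printed E-box and is not in capitals. It was present in 10.9% of all entries. The full element TGACGTCA was not found in these letters for any of the 8 members with an entry.

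Change was concentrated at 0.37 µM and above. No member passed an adjusted p of 0.05 (edgeR quasi-likelihood test, Benjamini-Hochberg adjustment over 14264 genes) at 0.0005, 0.002, 0.005, 0.014 or 0.04 µM, where 0.00701%, 0.0561%, 0.0771%, 0.217% and 0.792% of all genes were called. At these doses 0 members had an unadjusted p under 0.05, and the DESeq2 Wald test called 0 as well. At 0.12 µM BBC3 was called lower, against 2.33% of all genes called. At 0.37 µM 5 of 10 members were called, 3 higher (PMAIP1, MCL1, BNIP3L) and 2 lower (BBC3, BCL2L1), against 24.8% of all genes, 11.2% higher and 13.6% lower. At 1.11 µM 5 were called, with BAX, PMAIP1 and MCL1 higher and BAK1 and BBC3 lower, against 23% of all genes, 9.76% higher and 13.2% lower. At 3.33 µM 4 were called (40.2% of all genes) and at 10 µM 4 were called (35.2% of all genes). Over the whole series 7 of 10 members were called in the test of any dose, against 56.4% of all genes, and BCL2, BID and BCL2L11 were not. With so many genes called at the upper doses, the number of members called says little by itself, and the description below is of which members moved and which way.

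**Figure D1:**
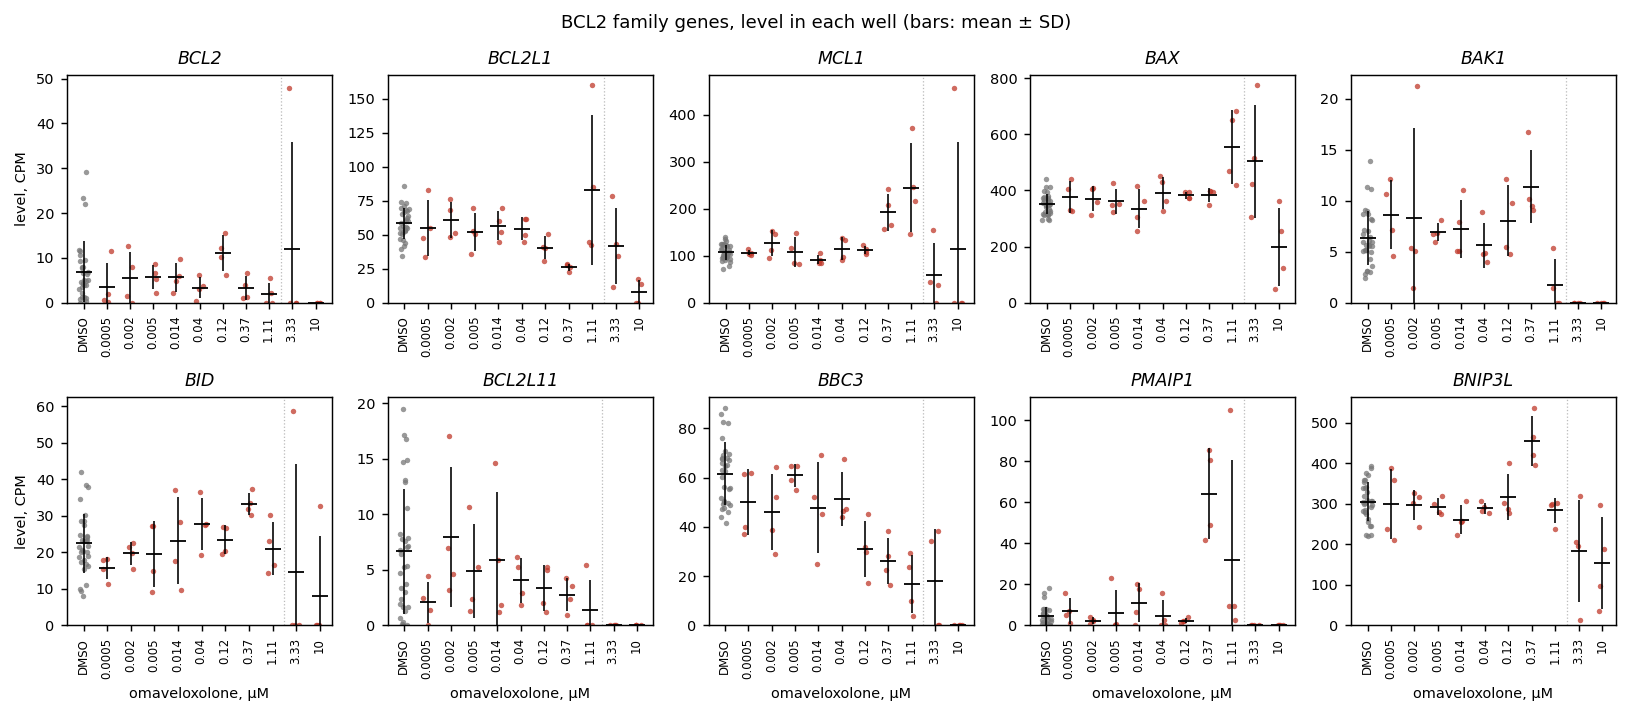
Level of each of the 10 genes in every well, in CPM after scaling, with DMSO (grey, 32 wells) at the low end and 4 wells (red) at each omaveloxolone dose in µM. Black bars are the mean ± SD. The dotted line separates the 3.33 and 10 µM wells, whose totals were 25637 to 208739 counts. PMAIP1 wells at 0.37 µM lie at 41.4 to 85.6 CPM, above every DMSO well, and those of BBC3 and BCL2L1 lie below every DMSO well.

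PMAIP1, also called NOXA, encodes a BH3-only protein that binds MCL1 and favours its degradation. Its level at 0.37 µM was 49.2, 85.6, 80.7 and 41.4 CPM, against a lowest of 0, a median of 3.28 and a highest of 18.4 CPM over 32 DMSO wells. All 4 treated wells lay above every DMSO well. The mean was 64.2 ± 22.2 CPM (SD, n = 4) at 0.37 µM, against 4.49 ± 4.71 CPM (SD, n = 32) in DMSO, a log2 change of 3.83 ± 0.70 (SE; edgeR adjusted p = 1.21e-05), or 14.2-fold. The step was abrupt. At 0.12 µM the 4 wells held 4.24, 1.20, 2.06 and 2.02 CPM, and the contrast of 0.37 with 0.12 µM gave a log2 change of 4.74 ± 1.45 (SE; edgeR adjusted p = 0.0278). PMAIP1 was the only member called in that step, in which 8.13% of all genes were called. Without replicate 2, 3 or 4 of each dose the step was not called, with log2 changes of 4.36, 4.54 and 4.84 and adjusted p-values of 0.135, 0.0790 and 0.0605 by edgeR.

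PMAIP1 at 1.11 µM rested on a single well. Replicate 1 held 105 CPM and the other wells 9.70, 2.52 and 9.51 CPM, all 3 within the range of DMSO. The log2 change of 2.81 ± 0.78 (SE; edgeR adjusted p = 0.00488) dropped to 0.69 with an adjusted p of 0.648 without replicate 1. At 3.33 and 10 µM no count was recorded in any of the 8 wells. With 3 counts as the floor over the group, the bound at 3.33 µM lies only 1.12-fold below DMSO and covers counting error alone. The contrast with DMSO was not called (edgeR adjusted p = 0.322), so a lower level at 3.33 µM was not established. At 10 µM the floor of 11.7 CPM lies above the DMSO level of 4.70 CPM, so no difference was detectable at this depth.

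BBC3, also called PUMA, encodes a BH3-only protein that binds all survival members. At 0.37 µM it moved opposite to PMAIP1. Its mean level was 61.6 ± 12.7 CPM in DMSO (SD, n = 32), 31.0 ± 11.5 CPM at 0.12 µM, 26.2 ± 9.34 CPM at 0.37 µM, 16.7 ± 11.9 CPM at 1.11 µM and 18.2 ± 21.1 CPM at 3.33 µM (SD, n = 4 each). The 0.37 µM wells held 28.0, 38.2, 16.2 and 22.5 CPM and the 1.11 µM wells 10.1, 3.73, 29.4 and 23.8 CPM, against 41.5 to 88.0 CPM with a median of 63.0 CPM in DMSO. No treated well at these doses reached the lowest DMSO well.

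The log2 change of BBC3 was -1.23 ± 0.29 at 0.37 µM (SE; edgeR adjusted p = 0.000591), -1.88 ± 0.33 at 1.11 µM (adjusted p = 6.99e-06) and -1.68 ± 0.43 at 3.33 µM (adjusted p = 0.00116, 14 counts in 2 of 4 wells). Over all genes tested the median log2 change at 3.33 µM was -2.32, below that of BBC3. At 10 µM no count was recorded, which on TMM-scaled totals puts the level at least 5.27-fold below DMSO. That bound covers counting error alone and depends on the scaling, as the TMM factors of these wells were 1.889 to 2.226. It would be smaller on plain totals. No step between neighbouring doses from 0.12 to 3.33 µM was called (adjusted p = 0.766, 0.205 and 0.847). The call at 0.12 µM, a log2 change of -0.99 ± 0.28 (SE; edgeR adjusted p = 0.0407), is the earliest for any member and is marginal. It was lost without replicate 1, 2 or 4 of each dose, with log2 changes of -1.001, -0.79 and -0.98 and adjusted p-values of 0.107, 0.177 and 0.101. The 5 lower doses gave means of 45.9 to 60.8 CPM, none of them called.

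BCL2L11 and BID complete the BH3-only members and were not called at any dose. BCL2L11 encodes BIM, which can bind every survival member. Its mean was 2.78 ± 1.46 CPM at 0.37 µM and 1.36 ± 2.72 CPM at 1.11 µM (SD, n = 4 each), against 6.69 ± 5.62 CPM in DMSO (SD, n = 32). The log2 change was -1.26 ± 0.88 at 0.37 µM (SE; edgeR adjusted p = 0.320) and -2.22 ± 1.06 at 1.11 µM (adjusted p = 0.124), the second resting on 8 counts in 1 well, and without that well, replicate 4, no count was left. BID, which is cut by caspase-8 to link death receptors to mitochondria, held 30.3 to 37.2 CPM at 0.37 µM, within the 8.15 to 41.9 CPM of DMSO. Its log2 change there was 0.57 ± 0.33 (SE; edgeR adjusted p = 0.215).

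Among the survival members, MCL1 and BCL2L1 parted at 0.37 µM. MCL1 encodes a short-lived survival protein and the main partner of the PMAIP1 product. Its wells held 165, 207, 157 and 242 CPM at 0.37 µM and 217, 371, 245 and 147 CPM at 1.11 µM, against a lowest of 71.1, a median of 105 and a highest of 140 CPM in DMSO. Every well at both doses lay above every DMSO well. The mean was 193 ± 39.7 CPM at 0.37 µM and 245 ± 93.9 CPM at 1.11 µM (SD, n = 4 each), against 107 ± 16.5 CPM in DMSO (SD, n = 32). The log2 change was 0.85 ± 0.24 at 0.37 µM (SE; edgeR adjusted p = 0.00544) and 1.19 ± 0.24 at 1.11 µM (adjusted p = 9.54e-05). The doses up to 0.12 µM averaged 91.5 to 127 CPM.

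At 3.33 µM MCL1 was called lower than at 1.11 µM, with a log2 change of -2.03 ± 0.44 (SE; edgeR adjusted p = 0.000151), in a step where 34.7% of all genes were called. Its 3.33 µM wells held 155, 0, 45.0 and 38.3 CPM. Of these, 3 lay below every DMSO well and 1 above every DMSO well, and the contrast with DMSO gave a log2 change of -0.84 ± 0.38 (SE; edgeR adjusted p = 0.0696). At 10 µM a single well held all 29 counts.

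BCL2L1 encodes BCL-XL, a long-lived survival protein. Its wells held 28.1, 22.4, 27.5 and 26.6 CPM at 0.37 µM, against a lowest of 34.4, a median of 57.4 and a highest of 86.0 CPM in DMSO. The groups did not overlap, and the treated wells lay close together. The mean was 26.2 ± 2.57 CPM at 0.37 µM (SD, n = 4), against 58.3 ± 11.3 CPM in DMSO (SD, n = 32), a log2 change of -1.15 ± 0.24 (SE; edgeR adjusted p = 0.000109). The 0.12 µM mean of 40.5 ± 8.28 CPM lay between them and was not called against either (log2 change -0.52 against DMSO, edgeR adjusted p = 0.309).

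BCL2L1 was called higher at 1.11 than at 0.37 µM, with a log2 change of 1.66 ± 0.30 (SE; edgeR adjusted p = 1.27e-05), in a step where 25.4% of all genes were called. Its 1.11 µM wells held 85.1, 44.8, 160 and 42.1 CPM, above the 0.37 µM wells and spread across and beyond the DMSO range. Against DMSO the log2 change at 1.11 µM was 0.50 ± 0.22 (SE; edgeR adjusted p = 0.0806). It became -0.03 (adjusted p = 0.947) without replicate 3, and it was called without replicate 2 or 4, with log2 changes of 0.70 and 0.72 and adjusted p-values of 0.0157 and 0.0181. The lower level at 3.33 than at 1.11 µM (log2 change -1.01 ± 0.37, SE; edgeR adjusted p = 0.0255) did not pass without replicate 1, at -0.90 with an adjusted p of 0.101, nor without replicate 3, at -0.15 with one of 0.844. At 10 µM 2 counts remained, and the DMSO level was 7.44 times higher (95% Poisson interval of the counts 2.06 to 61.5). The call against DMSO at 10 µM was lost with scaling to the total count and with the DESeq2 Wald test. Over the alternative settings the log2 change ran from -3.43 to -1.81.

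BCL2 itself, the founding survival gene, was scarce and variable in these cells. It averaged 3.22 ± 2.67 CPM at 0.37 µM and 1.92 ± 2.57 CPM at 1.11 µM (SD, n = 4 each), against 6.89 ± 6.81 CPM in DMSO (SD, n = 32). The DMSO wells alone ran from 0 to 29.2 CPM with a median of 4.89 CPM. No dose was called, and the log2 change was -1.09 ± 0.90 at 0.37 µM (SE; edgeR adjusted p = 0.409).

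BAX, whose product forms the pores in the outer mitochondrial membrane, had the tightest DMSO wells of the 10 members, at 294 to 442 CPM with a median of 351 CPM. At 0.37 µM its wells held 394, 347, 398 and 398 CPM, within the range of DMSO, and the log2 change was 0.13 ± 0.14 (SE; edgeR adjusted p = 0.554). At 1.11 µM they held 469, 650, 685 and 419 CPM, of which 3 of 4 lay above every DMSO well. The log2 change was 0.66 ± 0.13 (SE; edgeR adjusted p = 0.000107), with means of 556 ± 131 CPM at 1.11 µM (SD, n = 4) and 351 ± 36.7 CPM in DMSO (SD, n = 32). Against 0.37 µM the difference at 1.11 µM was 0.53 ± 0.19 on the log2 scale (SE; edgeR adjusted p = 0.0287). It was not called without replicate 2 (0.39, adjusted p = 0.150) or replicate 3 (0.44, adjusted p = 0.131).

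At 3.33 µM BAX held 304, 777, 517 and 421 CPM, from 53 to 119 counts a well. The log2 change against DMSO was 0.52 ± 0.15 (SE; edgeR adjusted p = 0.00380), and it became 0.26 (adjusted p = 0.206) without replicate 2. At 10 µM BAX was called lower, with a log2 change of -0.81 ± 0.21 (SE; edgeR adjusted p = 0.00175), but the value was 0.09 with median-of-ratios size factors and 0.28 with scaling to the total count, so 52 counts over 4 wells gave no settled direction. In the step from 3.33 to 10 µM, where 20.8% of all genes were called, BAX, BBC3 and BCL2L1 were called lower, and with size factors none of the 3 was. BAX also was the only member called between DMSO wells of column 23 and column 2, where 6.14% of all genes were called. It averaged 333 ± 28.8 CPM in column 23 and 370 ± 35.3 CPM in column 2 (SD, n = 16 each), a log2 difference of -0.16 (edgeR adjusted p = 0.0381).

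BAK1, the second pore former, held 16.7, 10.2, 9.48 and 9.11 CPM at 0.37 µM, against 2.47 to 13.9 CPM with a median of 5.82 CPM in DMSO. The log2 change was 0.83 ± 0.42 (SE; edgeR adjusted p = 0.147). At 1.11 µM only 9 counts were recorded, in 2 of 4 wells. The log2 change there was -1.88 ± 0.61 (SE; edgeR adjusted p = 0.0179). That call was lost without replicate 2, 3 or 4 of each dose, with log2 changes of -1.81, -1.49 and -1.45 and adjusted p-values of 0.0566, 0.0810 and 0.102. At 3.33 µM BAK1 was called lower with 0 counts in 4 wells, where the floor of 3 counts puts the level at least 1.51-fold below DMSO.

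BNIP3L, also called NIX, encodes an outer-membrane receptor that ties mitochondria to the autophagy machinery. Its wells held 395, 537, 466 and 421 CPM at 0.37 µM, against a lowest of 222, a median of 304 and a highest of 393 CPM in DMSO. All 4 lay above every DMSO well, the lowest by a narrow margin. The mean was 455 ± 62.1 CPM at 0.37 µM (SD, n = 4), against 305 ± 48.0 CPM in DMSO (SD, n = 32), a log2 change of 0.57 ± 0.18 (SE; edgeR adjusted p = 0.00969). Without replicate 2 of each dose the value was 0.49 (adjusted p = 0.0651).

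The gain of BNIP3L was not seen one dose up. Its 1.11 µM wells held 238, 296, 301 and 302 CPM, within the DMSO range, and the contrast of 1.11 with 0.37 µM gave a log2 change of -0.68 ± 0.25 (SE; edgeR adjusted p = 0.0361). That step was not called without replicate 1, 2 or 3, with log2 changes of -0.66, -0.62 and -0.69 and adjusted p-values of 0.0920, 0.108 and 0.0528. At 3.33 µM the log2 change against DMSO was -0.75 ± 0.23 (SE; edgeR adjusted p = 0.00706), and without replicate 4 it was -0.34 (adjusted p = 0.178). At 10 µM it was -0.93 ± 0.29 (SE; edgeR adjusted p = 0.00840) from 42 counts, but 0.15 with scaling to the total count. The median log2 change over all genes tested was lower than these values, at -2.32 for 3.33 µM and -5.51 for 10 µM.

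**Figure D2:**
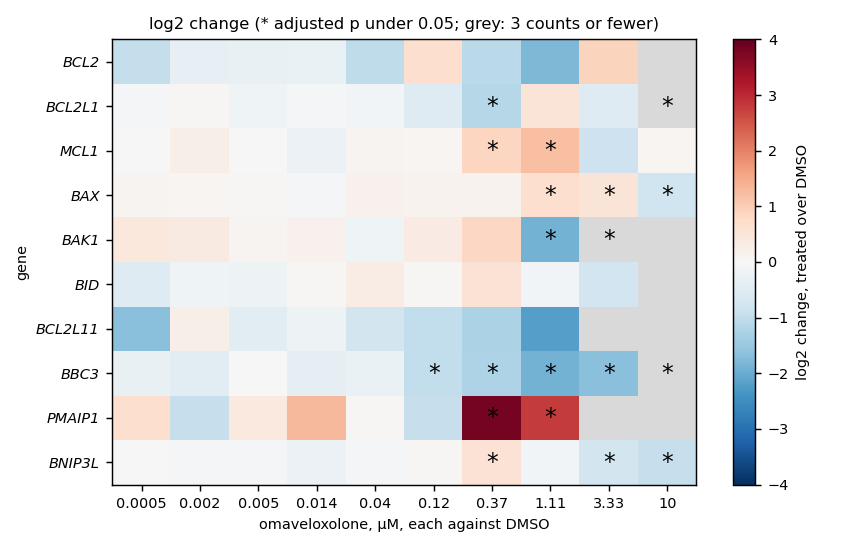
Log2 change of each gene at each dose against DMSO, red for higher and blue for lower in treated wells. Asterisks mark an adjusted p under 0.05 and grey cells hold 3 counts or fewer over 4 wells. Calls begin at 0.12 µM with BBC3 and number 5 at 0.37 µM. The 10 µM calls of BAX and BNIP3L turn positive (0.28 and 0.15) with scaling to the total count.

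At 0.37 µM the same 5 members that were called had wells lying entirely outside the DMSO range, PMAIP1, MCL1 and BNIP3L above it and BBC3 and BCL2L1 below it. Over all genes tested, 11.2% had wells outside the DMSO range at this dose. At 1.11 µM 2 of 10 members did, MCL1 above and BBC3 below, against 5.58% of all genes. The median log2 change of the 10 members was 0.35 at 0.37 µM and -0.10 at 1.11 µM, against -0.14 and -0.20 over all genes tested. At 3.33 and 10 µM it was -0.80 and -5.28, against -2.32 and -5.51 over all genes tested.

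Scaling and the choice of DMSO wells touch these calls. Median-of-ratios size factors moved the median of all genes by 0.25 on the log2 scale at 0.37 µM. With them 8 members were called there, the added ones being BAX (log2 change 0.38, edgeR adjusted p = 0.0251), BAK1 (1.08, adjusted p = 0.0417) and BID (0.82, adjusted p = 0.0479). Over all 14264 genes, 2486 were then called higher and 1438 lower, against 1593 and 1940 with TMM scaling. No called member changed direction at 0.37 or 1.11 µM under any scaling. The 4 DMSO wells in the plate rows of the treated wells held 5.52 to 14.0 CPM of PMAIP1 and 122 to 124 CPM of MCL1, in the upper part of the DMSO range. With these as the only DMSO wells BCL2L1 was the member still called at 0.37 µM and BBC3 the one at 1.11 µM. The log2 changes at 0.37 µM were then 2.89 for PMAIP1 (adjusted p = 0.148) and 0.65 for MCL1 (adjusted p = 0.465).

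**Figure D3:**
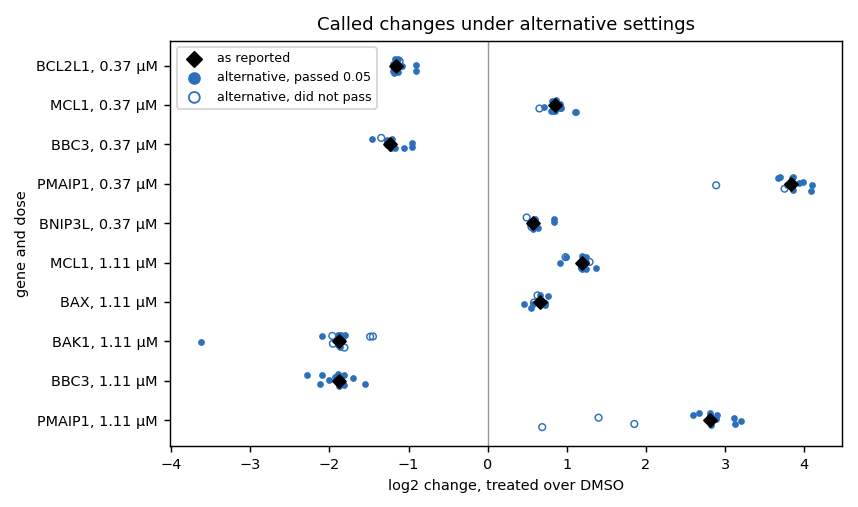
Log2 change of the members called at 0.37 and 1.11 µM as reported (black diamonds) and under each alternative setting (circles, filled where the adjusted p stayed under 0.05 and open where it did not). The values of BCL2L1 at 0.37 µM lie between -1.20 and -0.90, and PMAIP1 at 1.11 µM ranges from 0.69 to 3.20.

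Ratios of partner genes within a well do not depend on the scaling between wells. The log2 ratio of PMAIP1 to MCL1 had a median of -1.51 at 0.37 µM (4 wells, -2.54 to -0.95), against -4.16 in DMSO (-5.32 to -2.73, the 20 of 32 wells with 10 or more counts of both genes). Although both genes were called higher, every 0.37 µM well had more PMAIP1 per MCL1 than every DMSO well counted. The 3 wells counted at 0.014 µM had a median of -2.55 (-3.64 to -2.07), also partly above the DMSO range. Single wells at 0.0005 µM (-2.71) and 0.005 µM (-2.68) lay just above that range as well. At 1.11 µM the median was -3.77 (-5.06 to -1.03, 3 wells), and the wells overlapped those of DMSO. The log2 ratio of BAX to BCL2 had a median of 7.23 at 0.37 µM (5.84 to 8.34, 4 wells), against 5.82 in DMSO (3.57 to 7.67, 26 of 32 wells), and the groups overlapped. That of BCL2L11 to BCL2L1 had a median of -2.63 (3 wells) against -3.10 (26 wells), also with overlap.

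The rest of the BCL2 family showed 2 genes higher and 1 lower of 12 tested at 0.37 µM, against 11.2% of all genes higher and 13.6% lower. BCL2L2 encodes the survival protein BCL-W and was 6.06-fold higher, at 195 ± 18.4 CPM at 0.37 µM (SD, n = 4), against 32.1 ± 9.85 CPM in DMSO (SD, n = 32; edgeR adjusted p = 4.21e-11). Its transcripts overlap those of a read-through gene with PABPN1, so reads may be divided between them. At 1.11 µM BCL2L2 held 31.0 ± 29.0 CPM and its log2 change was -0.06 (adjusted p = 0.931). BNIP3, the close relative of BNIP3L, was called a dose earlier, at 281 ± 5.41 CPM at 0.12 µM and 381 ± 43.9 CPM at 0.37 µM (SD, n = 4 each), against 166 ± 24.2 CPM in DMSO (SD, n = 32). Its log2 change was 0.76 ± 0.16 at 0.12 µM (SE; edgeR adjusted p = 0.00142) and 1.20 ± 0.16 at 0.37 µM (adjusted p = 2.27e-09). BMF, a BH3-only gene named here after its values were seen, was the 1 called lower, with 1 count in 4 wells at 0.37 µM against 426 counts in 32 DMSO wells. BMF was called lower at 0.12 µM as well (log2 change -6.52 ± 1.88, SE; edgeR adjusted p = 0.0427). At 0.12 µM 2 of the 12 were called higher and 1 lower, against 2.33% of all genes called. The higher ones were BNIP3 and BCL2L10, the latter also named after its values were seen. BAD, a BH3-only gene controlled by phosphorylation, had a log2 change of 0.19 at 0.37 µM (edgeR adjusted p = 0.528). At 1.11 µM it was lower by edgeR, with a log2 change of -0.97 ± 0.23 (SE; adjusted p = 0.000910). With median-of-ratios size factors 5 of the 12 were called at 0.37 µM, against 2486 higher and 1438 lower of all 14264 genes.

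Among 18 genes of mitochondrial release and caspase control, 4 were higher and 1 lower at 0.37 µM, against 11.2% and 13.6% of all genes. CYCS, the gene of cytochrome c, held 160 ± 20.0 CPM at 0.37 µM (SD, n = 4), against 47.6 ± 12.8 CPM in DMSO (SD, n = 32), a log2 change of 1.75 ± 0.24 (SE; edgeR adjusted p = 6.57e-09). VDAC2, an outer-membrane channel that holds BAK1 in check, had a log2 change of 1.40 ± 0.16 (adjusted p = 8.2e-12). BIRC2, or cIAP1, a ubiquitin ligase of tumour necrosis factor receptor signalling, had one of 0.88 ± 0.25 (adjusted p = 0.00599). BIRC5, or survivin, which also serves chromosome segregation and tracks dividing cells, held 6.52 ± 4.65 CPM at 0.37 µM and 207 ± 55.8 CPM at 1.11 µM (SD, n = 4 each), against 70.8 ± 17.9 CPM in DMSO (SD, n = 32). Both differences were called, at log2 changes of -3.43 and 1.55 (edgeR adjusted p = 1.05e-10 and 6.54e-06).

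Of 12 death receptor pathway genes, 1 was higher and 1 lower at 0.37 µM, against 11.2% and 13.6% of all genes. CFLAR, the decoy that blocks caspase-8, was higher at 0.37 µM (log2 change 1.15 ± 0.25, SE; edgeR adjusted p = 0.000240) and lower at 1.11 µM (-1.74 ± 0.36, adjusted p = 0.000149). TNFRSF1A, a receptor of tumour necrosis factor, was lower at 0.37 µM (-0.99 ± 0.23, adjusted p = 0.000446). TNFRSF10B, the TRAIL receptor DR5 and a known target of DDIT3, held 25.7 ± 10.9 CPM at 0.37 µM (SD, n = 4), against 13.1 ± 7.51 CPM in DMSO (SD, n = 32), which was not called (edgeR adjusted p = 0.179).

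Of 14 regulators of BH3-only genes, 6 were higher and 4 lower at 0.37 µM, and 4 were higher and 4 lower at 1.11 µM, against 24.8% and 23% of all genes called at these doses. ATF4, the factor of the integrated stress response, held 294 ± 18.3 CPM at 0.37 µM (SD, n = 4), against 170 ± 18.4 CPM in DMSO (SD, n = 32), a log2 change of 0.79 ± 0.13 (SE; edgeR adjusted p = 1.19e-06). At 1.11 µM it held 182 ± 29.3 CPM and was not called (adjusted p = 0.640). DDIT3, its target CHOP, held 84.3 ± 29.1 CPM at 0.37 µM and 631 ± 23.4 CPM at 1.11 µM (SD, n = 4 each), against 29.0 ± 9.80 CPM in DMSO (SD, n = 32), with log2 changes of 1.54 ± 0.24 and 4.44 ± 0.20 (SE; adjusted p = 2.73e-07 and 2.65e-31). ATF3 had log2 changes of 2.56 ± 0.54 and 4.59 ± 0.50 at these doses (SE; adjusted p = 0.000124 and 1.01e-11). DDIT3 and ATF3 were highest at 1.11 µM. There PMAIP1 was called higher on 3 to 136 counts a well, with 3 of 4 wells in the DMSO range. A link between these genes was not tested. ATF5 was called higher at 0.12 µM (log2 change 0.82, edgeR adjusted p = 0.0205) and at 0.37 µM (0.99 ± 0.22, SE; adjusted p = 0.000212). It was called lower at 1.11 µM (-0.84 ± 0.27, SE; edgeR adjusted p = 0.0169), and also at 3.33 and 10 µM, where few counts remained.

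MDM2, which encodes a ubiquitin ligase, held 337 ± 54.6 CPM at 0.37 µM and 61.9 ± 11.7 CPM at 1.11 µM (SD, n = 4 each), against 81.3 ± 19.4 CPM in DMSO (SD, n = 32). It was called at 0.37 µM (log2 change 2.05 ± 0.21, SE; edgeR adjusted p = 2.78e-13) and not at 1.11 µM (adjusted p = 0.282). At 0.37 µM MDM2 was higher while BBC3 was lower, and a link between these genes was not tested.

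**Figure D4:**
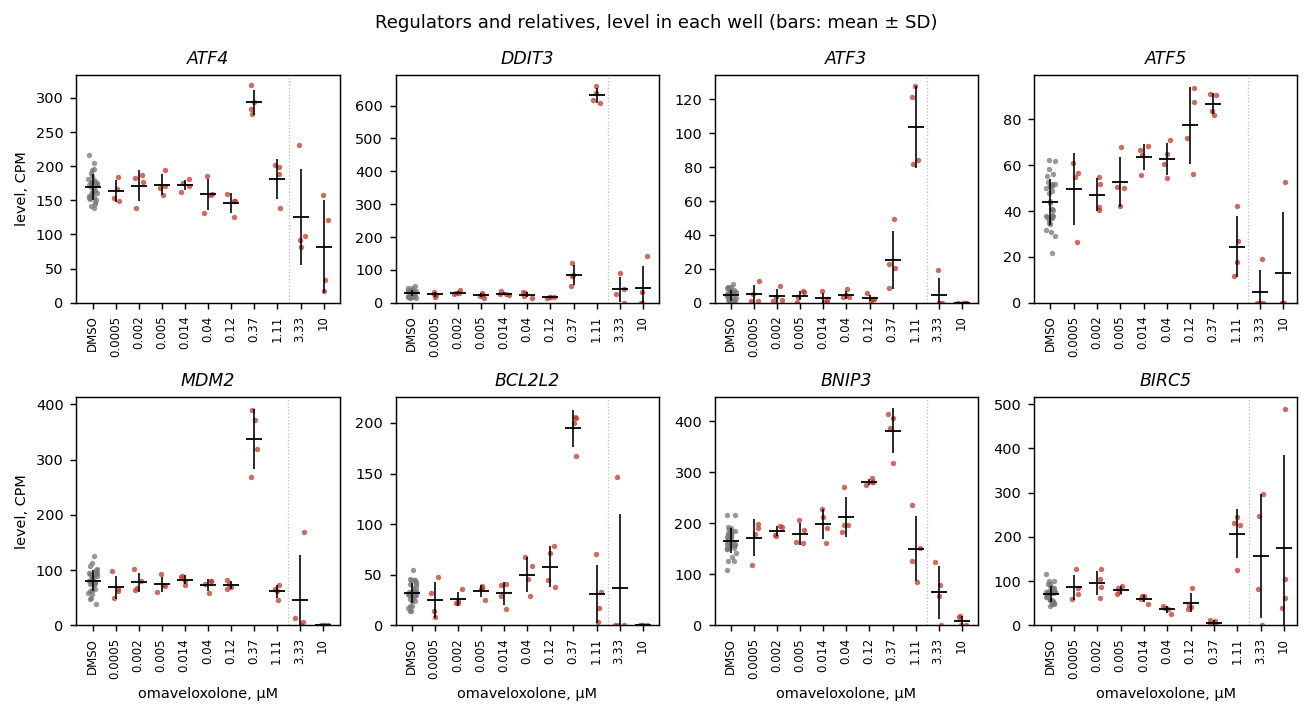
Level of 5 regulators and 3 relatives in every well, in CPM after scaling, with DMSO (grey, 32 wells) at the low end and 4 wells (red) at each dose in µM. Black bars are the mean ± SD. MDM2 (337 CPM) and BCL2L2 (195 CPM) have their highest means at 0.37 µM, and DDIT3 (631 CPM) and ATF3 (104 CPM) at 1.11 µM.

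Among 12 mitophagy genes 4 were higher and 0 lower at 0.37 µM, against 11.2% and 13.6% of all genes. Besides BNIP3 the higher mitophagy genes were SQSTM1, the p62 cargo receptor and a known NRF2 target (log2 change 3.50 ± 0.14, SE; edgeR adjusted p = 1.8e-34), and the autophagosome genes GABARAPL1 (2.17 ± 0.22, adjusted p = 1.12e-12) and MAP1LC3B (1.74 ± 0.16, adjusted p = 1.07e-14). At 1.11 µM 1 of the 12 was higher and 3 were lower, against 9.76% and 13.2% of all genes. None of the 7 tested genes that control MCL1 turnover was called at 0.37 µM by edgeR (1 at an unadjusted p under 0.05), against 24.8% of all genes. With median-of-ratios size factors 1 of the 7 was called, against 2486 higher and 1438 lower of all 14264 genes.

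The genes whose group means over DMSO and the 8 doses up to 1.11 µM were most like those of a member were found among 8057 candidates (Pearson's r over 9 groups, which share the DMSO wells). For BCL2L1 they were ATP2B1 (0.990), MXRA5 (0.983) and RAB11B (0.979). For MCL1 they included PLAUR (0.968) and NCLN (0.966). For BAX they were ZNF326 (0.984), BUB3 (0.963) and VASP (0.963). For BBC3 they were CHD6 (0.967), TRAPPC1 (0.967) and SPTBN1 (0.967). For BNIP3L they were AC015802.6 (0.981), OSTM1 (0.978) and PPP2CB (0.973). BID was most like STX18 (0.977), LARS (0.975) and DCAF13 (0.940). These values are a description, with no test, and follow the shape of a pattern and not its size. The log2 range over the 9 groups was 2.048 for BBC3, against 1.917 for CHD6, 1.203 for TRAPPC1 and 0.619 for SPTBN1. For BCL2L1 it was 1.47, against 1.194 for ATP2B1, 3.845 for MXRA5 and 1.222 for RAB11B.

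The spread between DMSO wells differed widely among the members. The coefficient of variation was 10.4% for BAX, 15.4% for MCL1, 15.7% for BNIP3L, 19.4% for BCL2L1 and 20.7% for BBC3. It was 36.4% for BID, 41.7% for BAK1, 84.0% for BCL2L11, 98.9% for BCL2 and 105% for PMAIP1. The variance of the DMSO counts was 7.23 times their mean for BAK1 and 49.1 times for BNIP3L, with the other members between. Wells differed by more than counting alone would give if each count were a separate molecule. Whether molecular tags were collapsed is not known here. PMAIP1 had 0 counts in 4 of 32 DMSO wells and up to 164 counts in another, which is why its well-to-well values at the lower doses, such as 22.9 CPM in 1 well at 0.005 µM, are hard to read.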

How the data were processed

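The authors deposited raw counts per gene and well; kallisto and bustools on GRCh38 are named in the submitters' processing notes, and their versions, the annotation and any collapsing of molecular tags are not given in the sources used here. The 72 wells were grouped by the labels, which give 16 DMSO wells a plate in the protocol and 32 DMSO samples. Symbols came from GENCODE release 29 (23078 of 23170 identifiers matched). 1 pseudogene row was left out of totals and tests. Genes passing edgeR's filterByExpr (minimum count 10) were fitted across all 72 wells with TMM scaling, robust dispersions and the quasi-likelihood test (edgeR 4.0.16, R 4.3.3), and p-values were adjusted by Benjamini-Hochberg over 14264 genes within each comparison (threshold 0.05). All 10 members passed the filter. SE is the log2 change divided by the square root of F. Levels are CPM on TMM-scaled totals; ratios used a prior count of 2. Lengths were not used, so levels are not compared between genes.

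The members, lists and named-gene rules were chosen with earlier results of these data known. Related genes were named by size of change at 0.37 µM among called genes with a mean of 10 CPM or more, up to 4 per list, plus ATF4, DDIT3, ATF3, BNIP3, BCL2L2, BAD and TNFRSF10B. Some genes that these rules name are not reported here. Alternatives were other scalings, DESeq2 1.42.0, no filter, fewer wells, plate side, a replicate block and the pseudogene kept, the last added after seeing the data. BCL2L14, BIK, HRK, BNIPL and TRIM17 did not pass the filter. The model was also run on counts simulated from its own fitted spread, which cannot show whether that spread describes these wells. Floors (3 counts over the group) and Poisson intervals cover counting error only. Whether the wells are separate cultures or share a plate is not stated in the labels, so p-values measure only the spread between wells, which may be technical.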

Additional observations from a re-analysis of the deposited data

Results flagged for a closer look

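Dixon's criterion sets 1 well apart by chance in about 1 in 20 groups if values are normally distributed. That rate need not hold for scarce members with 0 counts in some wells. By this criterion 1 well stood apart from the other 3 in 10 of 84 groups of 4 wells searched. PMAIP1 supplied 3 of them: replicate 1 at 1.11 µM held 105 CPM against 2.52 to 9.70 CPM in the others, replicate 1 at 0.005 µM held 22.9 CPM against 0 to 0.582 CPM, and replicate 1 at 0.04 µM held 16.0 CPM against 0 to 2.41 CPM. BAK1 supplied 2, with 16.7 CPM in replicate 1 at 0.37 µM against 9.11 to 10.2 CPM and 8.88 CPM in replicate 2 at 0.04 µM against 4.04 to 4.86 CPM. BAX in replicate 2 at 0.37 µM held 347 CPM, below the 394 to 398 CPM of the others. BNIP3L in replicate 1 at 1.11 µM held 238 CPM, below the 296 to 302 CPM of the others. BBC3 in replicate 2 at 0.04 µM held 67.4 CPM against 44.0 to 47.2 CPM. BCL2 in replicate 2 at 0.0005 µM held 11.6 CPM against 0.191 to 1.90 CPM. MCL1 in replicate 4 at 10 µM held 457 CPM, all 29 counts of that dose.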

How the results depend on the processing

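The DESeq2 Wald test brings its own size factors, and the replicate block also keeps only 4 DMSO wells. The number of members called moved as follows. With median-of-ratios size factors it was 8 at 0.37 µM, 2 at 10 µM, 3 at 0.37 against 0.12 µM and 1 at 10 against 3.33 µM, and the related lists gave 5 calls in the other BCL2 family and 1 in MCL1 turnover at 0.37 µM and 4 in mitochondrial release at 1.11 µM. The DESeq2 Wald test gave 8 at 0.37 µM and 2 at 10 µM, and scaling to the total count gave 2 at 10 µM. Over all 14264 genes, edgeR with size factors called 2486 higher and 1438 lower at 0.37 µM, and 936 higher and 2022 lower at 10 µM. Scaling to the total count called 1106 higher and 1570 lower at 10 µM. Shares over all genes are not given for the other settings. With only the 4 DMSO wells that share plate rows with the drug, the number of members called was 0 at 0.12 µM and 1 at each of 0.37 and 1.11 µM. Without a filter it was 0 at 0.12 µM. Leaving out each replicate number in turn gave 0 to 1 calls for 0.12 µM, 4 to 5 for 0.37 µM, 4 to 6 for 1.11 µM, 3 to 5 for 3.33 µM and 2 to 5 for 10 µM, and 0 to 1 at 0.37 against 0.12 µM, 2 to 5 at 1.11 against 0.37 µM, 1 to 3 at 3.33 against 1.11 µM and 2 to 3 at 10 against 3.33 µM. The cause of these shifts was not tested. Replicate numbers follow the order of well names: 40 correlations of same-numbered wells ran from -0.13 to 0.12, 1 of them over 0.1, so the numbers were not taken as pairs. With the replicate block the calls were 0 for both 0.12 and 0.37 µM, 1 for 1.11 µM, 2 for 3.33 µM, 2 at 1.11 against 0.37 µM, 1 at 3.33 against 1.11 µM and 1 at 10 against 3.33 µM.

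Single log2 changes turned direction in 15 cases, none at a called dose below 10 µM. BAX at 10 µM became 0.09 (0.08546) with size factors, 0.28 with the total count and 0.09 (0.0878) with the Wald test, and BNIP3L at 10 µM became 0.15 with the total count. At 0.12 µM, where values lay near 0, the total count gave -0.032 for MCL1, -0.034 for BID and -0.039 for BNIP3L. The 4 DMSO wells of the same rows gave -0.14 for MCL1 at 0.12 µM and 0.30 for BID at 1.11 µM. Leaving out each replicate number in turn gave -0.017 to 0.13 for BID and -0.086 to 0.11 for BNIP3L at 0.12 µM, and -0.026 to 0.72 for BCL2L1 and -0.32 to 0.049 for BID at 1.11 µM. The share of called genes that were higher was 45.1% at 0.37 µM and 63.4% with size factors, 42.5% at 1.11 µM and 26.8% with the total count, and 9.55% at 10 µM against 31.6% and 41.3%. The total count moved the median of all genes by -0.21 at 1.11 µM and 0.11 at 3.33 µM. At 3.33 and 10 µM depth limits every member.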
